A study of Homo sapiens with 4 samples.

Results

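The genes described here are 10 transcription factors that stand on opposite sides of the epithelial-mesenchymal transition (EMT). They were taken by gene symbol from the 60623 genes of the count data, and each symbol matched 1 gene. The EMT-inducing factors are TWIST1, TWIST2, SNAI1, SNAI2, ZEB1, ZEB2 and PRRX1. The epithelial factors, often called guardians of the epithelial state, are GRHL2, OVOL1 and OVOL2. All were measured in BICR10, an established human head and neck cancer cell line, by stranded mRNA sequencing with pairs of 150 bp reads. The cells were transduced with a lentivirus that carried either a control hairpin (shControl) or a hairpin against YEATS2 (shYEATS2), and were selected with 1 μg/mL puromycin for 3 days. Each group had 2 libraries, and both groups share the cell line, the lentiviral vector type and the selection. YEATS2 is a histone reader that binds acylated lysines, and the comparison asks which transcripts change when its mRNA is lowered. A pair of YEATS2 hairpins was used in the study, and the labels do not say which one each shYEATS2 library carried.

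EMT is the process by which epithelial cells loosen their junctions, lose apical-basal polarity and take on the shape and motility of mesenchymal cells. The SNAI and ZEB proteins are zinc finger repressors that bind E-boxes, short sites with the core CANNTG, in the promoters of junction genes such as CDH1 (E-cadherin). The TWIST proteins are basic helix-loop-helix (bHLH) factors that bind E-boxes as dimers, and PRRX1 is a paired-type homeobox factor known from limb and craniofacial mesenchyme. GRHL2, OVOL1 and OVOL2 oppose them: GRHL2 activates junction genes, the OVOL proteins repress mesenchymal ones, and GRHL2, OVOL1 and OVOL2 are all known to hold ZEB1 down. In head and neck squamous carcinomas, EMT factors are known from the invasive front, where tumour cells border the stroma.

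The 4 libraries held between 11334133 and 47297970 counts on genes. The shYEATS2 pair was the shallower one, so depth and knockdown cannot be told apart by design. YEATS2 itself had 3000 and 2521 counts in shControl and 741 and 343 in shYEATS2, and 44% of its control level remained (log2 fold change −1.19, standard error 0.08, edgeR adjusted p = 3.4e-21). The labels call the cells head and neck cancer, and the squamous epithelial markers were unevenly present. Of the 16 listed, 12 had a mean of at least 1 CPM over all 4 libraries. CPM are counts scaled to a common library size, after normalization for library composition by the trimmed mean of M-values (TMM). CDH1 and KRT15 were under 1 CPM in both shControl libraries and reached this mean through shYEATS2. KRT14, at 1.23 and 1.19 CPM in shControl, did not reach it. SFN, at 130 and 130 CPM in shControl, PERP, at 103 and 121, and the keratin KRT6A, at 54.9 and 58.1, were among the expressed ones. TP63, the master regulator of stratified epithelia, had 3, 0, 0 and 3 counts in shControl 1 and 2 and shYEATS2 1 and 2, and KRT17 had at most 15 in a library. Of the 14 squamous markers tested, 7 were called lower in shYEATS2 and 3 higher, and the median of their log2 fold changes was −0.59. The background, all 17058 tested genes, held 23.6% called lower and 22.6% called higher. KRT14, called lower, had enough counts for testing in shControl alone, and CDH1, called higher, in shYEATS2 alone. The counts and the median of these markers include both genes. KRT6A went to 1.38 and 2.20 CPM (−5.09 on the log2 scale), and KRT5 fell by 3.78 and DSC3 by 2.98. The 3 called higher were CDH1, which rose by 2.91, KRT15, by 1.90, and PERP, by 0.19. The summed level of the 16, 397 and 413 CPM in shControl and 351 and 331 in shYEATS2, is carried mostly by SFN and PERP. Of 15 fibroblast markers, a list that holds TWIST2 and PRRX1 themselves, 13 reached that mean. The fibroblast sum was 8040 and 7954 CPM in shControl and 2853 and 2676 in shYEATS2. Of the 13 fibroblast markers tested, 11 were called lower and 0 higher, beside the same background of 23.6% lower and 22.6% higher. TCF21 had 0 counts in every library and THY1 stayed under 0.29 CPM. The endothelial sum was 44.8 and 45.9 CPM in shControl and 23.9 and 25.8 in shYEATS2, with CLDN5 and TIE1 at 0. The immune markers summed to between 1.06 and 2.20 CPM, with CD3E, CD68 and NKG7 at 0, and the melanocyte markers to between 11.5 and 15.0, with MLANA and TYR at 0. In bulk RNA, fewer cells of a type and less RNA per cell cannot be told apart, and the part of the fibroblast markers in the results below was not tested.

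All 7 EMT-inducing factors were expressed in every library, and the 3 epithelial factors had 0, 1 and 4 counts summed over all libraries, among 122529397. Levels are given as CPM, with the shControl pair first and the shYEATS2 pair second wherever 4 values stand together. A gene was called changed where edgeR's quasi-likelihood test, run over all 17058 genes with enough counts, gave a Benjamini-Hochberg adjusted p under 0.05, and ± beside a log2 fold change is its standard error. All 7 EMT-inducing factors were tested, and none of the epithelial factors was. TWIST1, SNAI1 and PRRX1 fell in shYEATS2, ZEB1 rose, and TWIST2, SNAI2 and ZEB2 did not pass the test. The 3 falls among 7 factors stand beside a background of 23.6% of all tested genes called lower, and the 1 rise beside 22.6% called higher. The median log2 fold change of the 7 factors was −0.08, against −0.01 over all tested genes.

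**Figure D1:**
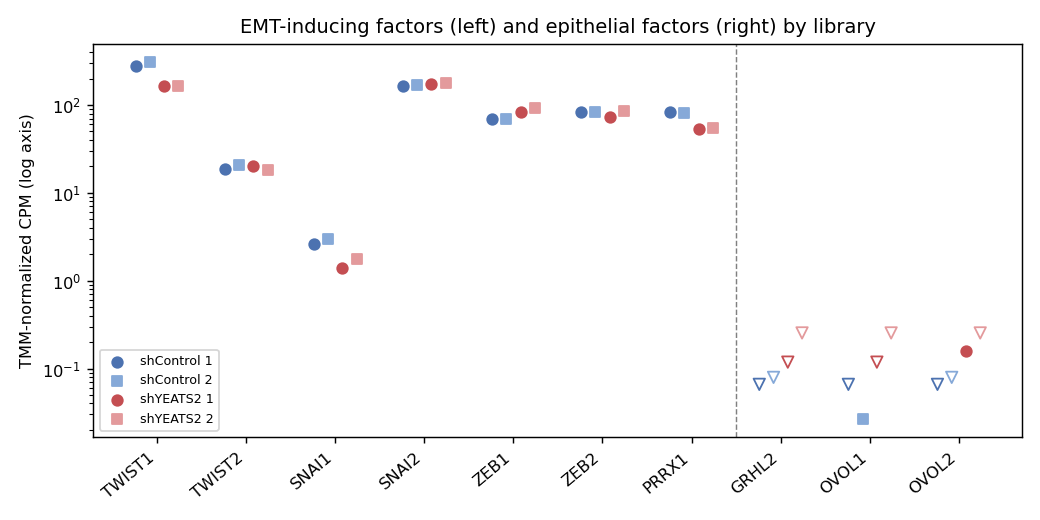
Level of each of the 10 factors in each library, as TMM-normalized CPM on a log axis, with shControl in blue and shYEATS2 in red. Open triangles stand at the level of 3 counts for libraries with 0 counts. TWIST1, SNAI1 and PRRX1 lie lower in both shYEATS2 libraries, ZEB1 lies higher, and GRHL2, OVOL1 and OVOL2 have from 0 to 4 counts in a library.

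TWIST1 (ENSG00000122691, chromosome 7, 19020991 to 19117636, minus strand, GRCh38) was the factor with the highest level and among the tested factors also the one with the smallest adjusted p. TWIST1 is a bHLH factor of the cranial neural crest and mesoderm whose loss in humans causes Saethre-Chotzen syndrome, and in carcinoma cells it represses CDH1. Its counts were 12489, 11722, 4137 and 1950, which gave 275, 310, 163 and 165 CPM. The groups did not overlap, and the shYEATS2 values were close to each other (164 ± 1.52 CPM, SD, n = 2, against 292 ± 24.6 in shControl). The log2 fold change was −0.83 ± 0.06 (95% interval −0.96 to −0.71, edgeR adjusted p = 1.5e-18), so 56.1% of the control level remained. Ordered by size, this was the 827th fall among the 4019 genes called lower. TWIST1 stayed called lower in every alternative, with a log2 fold change from −0.92 to −0.70. An antisense lncRNA that overlaps the TWIST1 gene (ENSG00000232821) had at most 13 counts in a library.

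TWIST2 (ENSG00000233608, chromosome 2, 238848032 to 238910534, plus strand), the paralog of TWIST1 known from dermal fibroblast precursors, did not pass the test. Its level was 18.9, 20.9, 20.1 and 18.0 CPM, and the groups overlapped. The log2 fold change was −0.05 ± 0.10, with a 95% interval from −0.25 to 0.15 and an edgeR adjusted p of 0.730. Its sign turned positive in 3 alternatives, and the call did not change in any. The difference between the log2 fold changes of TWIST1 and TWIST2 was −0.79 ± 0.12. Per kilobase of exon, TWIST1 stood 15.5 and 15.8 times as high as TWIST2 in shControl, and 8.67 and 9.81 times as high in shYEATS2. These ratios did not overlap between groups, but an exact permutation test of 2 libraries against 2 gave 0.333, the smallest two-sided p it allows. It gave the same value for each of the 3 paralog pairs compared, before any adjustment.

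SNAI1 (Snail, ENSG00000124216, chromosome 20, 49982980 to 49988886, plus strand) was the EMT-inducing factor with the lowest level. Snail represses CDH1 early in EMT, and its protein is short-lived, being phosphorylated by GSK3B and degraded. SNAI1 had 120, 113, 35 and 21 counts, or 2.64, 2.99, 1.38 and 1.78 CPM. The shYEATS2 values were the lower ones without overlap, and the log2 fold change was −0.88 ± 0.26 (95% interval −1.40 to −0.36, edgeR adjusted p = 0.0040). This call rested on few counts. With DESeq2 the adjusted p was 0.070 at a log2 fold change of −0.86, and without shYEATS2 replicate 1 it was 0.127 at −0.67.

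SNAI2 (Slug, ENSG00000019549, chromosome 8, 48917598 to 48921740, minus strand) is the family member that basal keratinocytes and neural crest cells use. Its level was 164, 169, 174 and 177 CPM. Both shYEATS2 libraries lay slightly above both shControl libraries, but the log2 fold change of 0.07 ± 0.06 did not pass the test (95% interval −0.05 to 0.19, edgeR adjusted p = 0.352). Scaling by library totals alone gave 0.20 with an adjusted p of 0.0040, and this scaling moved the median of all tested genes from −0.01 to 0.13. SNAI1 and SNAI2 differed in their log2 fold changes by −0.95 ± 0.27, SNAI1 being the one that fell. SNAI1 stood at 0.0309 and 0.0339 of the level of SNAI2 per kilobase in shControl, and at 0.0153 and 0.0194 in shYEATS2.

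PRRX1 (ENSG00000116132, chromosome 1, 170662728 to 170739421, plus strand) marks lateral plate and limb bud mesenchyme, and it is also a marker of fibroblasts. It had 3752, 3076, 1347 and 646 counts, or 82.6, 81.3, 53.1 and 54.8 CPM. The SD within a group was 0.930 CPM in shControl and 1.16 CPM in shYEATS2 (n = 2 each), and the groups did not overlap. The log2 fold change was −0.61 ± 0.07 (95% interval −0.75 to −0.47, edgeR adjusted p = 3.0e-11), so 65.7% of the control level remained. Over the alternatives it ranged from −0.66 to −0.47, and PRRX1 stayed called lower in each. A lncRNA within its span on the same strand (ENSG00000271811) had 29, 25, 5 and 7 counts and did not pass the test (log2 fold change −0.95 ± 0.55, edgeR adjusted p = 0.154).

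**Figure D2:**
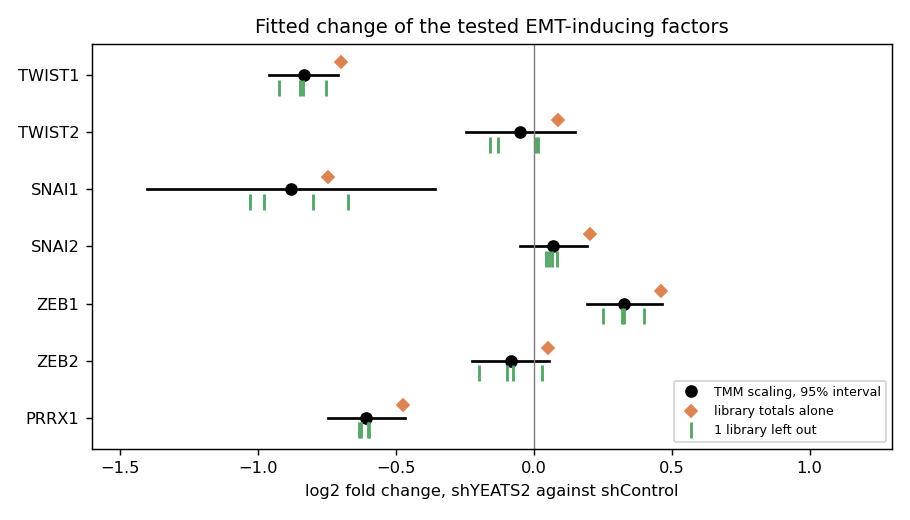
Log2 fold change of each tested factor, shYEATS2 against shControl. Black points and lines give the TMM-scaled estimate with its 95% interval, orange diamonds the estimate with library totals alone, and green ticks the estimates with 1 library left out. The intervals of TWIST1, SNAI1 and PRRX1 lie below 0, that of ZEB1 lies above 0, and those of TWIST2, SNAI2 and ZEB2 include 0.

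ZEB1 (ENSG00000148516, chromosome 10, 31318495 to 31529814, plus strand) was the 1 factor called higher. ZEB1 is a zinc finger and homeobox protein that represses CDH1, polarity genes and the microRNAs of the miR-200 family, which in turn target its own mRNA. Its counts were 3153, 2617, 2098 and 1089, which gave 69.4, 69.2, 82.7 and 92.3 CPM. Both shYEATS2 libraries lay above both shControl libraries, and their own gap, 82.7 to 92.3 CPM, was wider than that of the shControl pair. The log2 fold change was 0.33 ± 0.07 (95% interval 0.19 to 0.46, edgeR adjusted p = 4.9e-05), with 0.25 to 0.46 over the alternatives, and each of these kept the call.

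ZEB1-AS1, a lncRNA on the opposite strand whose annotated span (31206278 to 31320447) runs into the 5′ end of ZEB1, also rose. It had 195, 163, 202 and 98 counts, or 4.29, 4.31, 7.97 and 8.31 CPM, with no overlap between groups. Its log2 fold change was 0.91 ± 0.16 (edgeR adjusted p = 1.1e-06). The library kit keeps strand, but the strand setting of the counting is not given in the sources used here, so reads of the overlapping part cannot be assigned to 1 strand with certainty. Of the exon bases of ZEB1, 95.4% are free of any other gene's exons on either strand.

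Because ZEB1 and ZEB1-AS1 rose together, their start regions are shown. RefSeq (GRCh38.p14) gives 7 start windows for ZEB1 and 2 for ZEB1-AS1, each running from 250 bases before a start site to 50 after it. The pair of windows below overlap by 220 bases on opposite strands, chr10:31318966-31319265 (plus) for ZEB1 and chr10:31319046-31319345 (minus) for ZEB1-AS1. Capitals mark the E-box CAGGTG or its reverse complement CACCTG, the site that SNAI and ZEB proteins are known to bind.
ZEB1: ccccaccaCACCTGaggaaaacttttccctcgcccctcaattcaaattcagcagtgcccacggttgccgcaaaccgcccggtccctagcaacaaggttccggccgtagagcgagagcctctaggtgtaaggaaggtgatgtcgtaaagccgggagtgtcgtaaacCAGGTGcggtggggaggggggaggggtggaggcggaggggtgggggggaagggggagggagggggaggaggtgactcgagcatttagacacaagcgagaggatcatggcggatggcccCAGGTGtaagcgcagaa
ZEB1-AS1: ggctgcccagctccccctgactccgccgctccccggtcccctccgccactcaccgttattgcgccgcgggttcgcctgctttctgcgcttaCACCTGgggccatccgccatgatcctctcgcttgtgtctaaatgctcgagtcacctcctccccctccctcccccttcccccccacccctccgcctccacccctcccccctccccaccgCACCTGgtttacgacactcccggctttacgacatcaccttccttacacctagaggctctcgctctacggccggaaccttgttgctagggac

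The ZEB1 window holds the site 3 times, at −242, −85 and 33 from the start site by their first base, and the ZEB1-AS1 window holds 2 of the same sites read from the other strand. On either strand, CAGGTG stands in 20.6% of the 35116 windows of this length in the table. It stands in 2 of the 7 ZEB1 windows and 1 of the 2 ZEB1-AS1 windows. The single windows of PRRX1, TWIST2 and ZEB2 hold no match to these letters. A match is a description of the sequence, and binding was not measured in these libraries.

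ZEB2 (SIP1, ENSG00000169554, chromosome 2, 144364364 to 144521057, minus strand), the paralog that interacts with SMAD proteins, had 83.7, 82.7, 72.7 and 85.9 CPM. The shYEATS2 libraries lay on both sides of the shControl pair. The log2 fold change was −0.08 ± 0.07 (95% interval −0.22 to 0.06, edgeR adjusted p = 0.348). This value depends on the shYEATS2 libraries: without shYEATS2 replicate 2 it was −0.20 with an adjusted p of 0.0029, and without shYEATS2 replicate 1 it was 0.03. ZEB2-AS1, antisense to its 5′ end, had at most 9 counts in a library. The log2 fold changes of ZEB1 and ZEB2 differed by 0.41 ± 0.10. Per kilobase of merged exons, ZEB1 stood 2.51 and 2.53 times as high as ZEB2 in shControl and 3.44 and 3.25 times in shYEATS2. These ratios depend on the length used. By the longest transcript, ZEB1 stood at 11.11 and 11.07 CPM per kilobase in shControl, against 8.74 and 8.63 for ZEB2. In shYEATS2 the longest transcript gave 13.2 and 14.8 for ZEB1, against 7.59 and 8.96 for ZEB2.

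The microRNAs of the miR-200 family and miR-205 target the ZEB mRNAs, and ZEB1 represses the former, which forms a loop between epithelial and mesenchymal states. Small RNAs were not captured by these libraries, so only their host transcripts can be read. MIR200CHG, the host of miR-200c and miR-141, and MIR205HG, the host of miR-205, had 0 counts in all 4 libraries. Of the 5 host and antisense genes listed, 2 were tested, and beside ZEB1-AS1 this was MIR34AHG, which did not pass (log2 fold change −0.39 ± 0.42). The mature sequences that these hosts carry, from RefSeq (GRCh38.p14), are shown with the seed (bases 2 to 8) in capitals. The seeds of miR-200c-3p and miR-141-3p differ, so the pair falls in separate seed groups.
hsa-miR-200c-3p: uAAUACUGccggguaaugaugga
hsa-miR-141-3p: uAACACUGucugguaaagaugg
hsa-miR-205-5p: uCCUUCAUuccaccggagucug

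The epithelial factors were at or near the limit of detection. OVOL1 (ENSG00000172818, chromosome 11, 65787063 to 65797214, plus strand), a zinc finger repressor, had 1 count, in shControl 2. OVOL2 (ENSG00000125850, chromosome 20, 17956979 to 18059188, minus strand), its relative in embryonic epithelia, had 4 counts, all in shYEATS2 1. GRHL2 (ENSG00000083307, chromosome 8, 101492439 to 101669726, plus strand), a grainyhead factor that activates CDH1 and tight junction genes, had 0 counts in each library. With 0 counts, a library still allows a level of up to 3 counts, which is 0.0661 CPM in shControl 1, 0.0793 in shControl 2, 0.118 in shYEATS2 1 and 0.254 in shYEATS2 2, by counting error only. No fold change is given, since both groups stood at or near this floor, and a level under it was not detectable at this depth. The floor is higher in shYEATS2, where fewer reads were counted.

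Against that floor, even SNAI1, the EMT-inducing factor at the lowest level, was at least 24.85-fold higher than GRHL2 per kilobase of exon in every library. The margin over the floor was smaller for the OVOL genes, at 15.6-fold for OVOL1 and 9.04-fold for OVOL2 in shYEATS2 2. TWIST1 was at least 1970-fold higher than GRHL2 in every library, and the bound was 12618 in the deepest one. Neighbouring genes could hide some OVOL1 reads if strand was not used in counting, and some OVOL2 reads with or without strand. Of the exon bases, 72.7% of OVOL1, 97.3% of OVOL2 and 99.2% of GRHL2 are free of other genes' exons on either strand. SNX5, a sorting nexin gene that overlaps the OVOL2 span on the same strand, had 3670, 3179, 2419 and 1218 counts and was called higher (log2 fold change 0.26, edgeR adjusted p = 0.00070). MGME1, a mitochondrial exonuclease gene on the opposite strand of that span, was called higher as well (log2 fold change 0.53, edgeR adjusted p = 6.0e-08). The 4 OVOL2 counts of shYEATS2 1 lie in a span with much transcription from other genes. OVOL1-AS1 had 0 counts in all libraries.

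Per kilobase of merged exons, the levels put the EMT-inducing factors in a wide order. In shControl, TWIST1 stood at 138 and 155 CPM per kilobase and SNAI2 at 50.1 and 51.6. PRRX1 (10.02 and 9.86), TWIST2 (8.86 and 9.81) and ZEB1 (8.03 and 7.998) followed. The means of PRRX1 and TWIST2, 9.94 and 9.33, differed by less than the spread of the TWIST2 libraries (SD 0.676). ZEB2 stood at 3.20 and 3.16, and SNAI1 at 1.55 and 1.75.

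In shYEATS2 the same scale gave 81.7 and 82.8 CPM per kilobase for TWIST1 and 53.1 and 53.8 for SNAI2. ZEB1 (9.56 and 10.7) then stood above PRRX1 (6.44 and 6.64), where in shControl it had stood below it. The order of the middle factors depends on the length used. By the longest transcript in place of merged exons, PRRX1 stood at 20.3 and 20.0 in shControl and at 13.1 and 13.5 in shYEATS2, overlapping TWIST2 and ZEB1 there. TWIST1 and SNAI2 kept the top places by both lengths. Among 33142 genes with a length and a count, TWIST1 ranked 219th and 181st in shControl and 374th and 366th in shYEATS2, while SNAI2 ranked 741st and 718th, then 645th and 629th.

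The summed level of the 7 factors was 219 and 239 CPM per kilobase in shControl and 164 and 167 in shYEATS2. TWIST1 made up 62.8% and 64.8% of this sum in shControl and 49.9% and 49.7% in shYEATS2. SNAI2 made up 22.8% and 21.6%, then 32.4% and 32.3%, although its own level did not pass the test. ZEB1 went from 3.66% and 3.34% of the sum to 5.84% and 6.402%. These shares add to a whole and carry no test. By the longest transcript, TWIST1 made up 59.7% and 61.9%, then 47.4% and 47.1%.

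**Figure D3:**
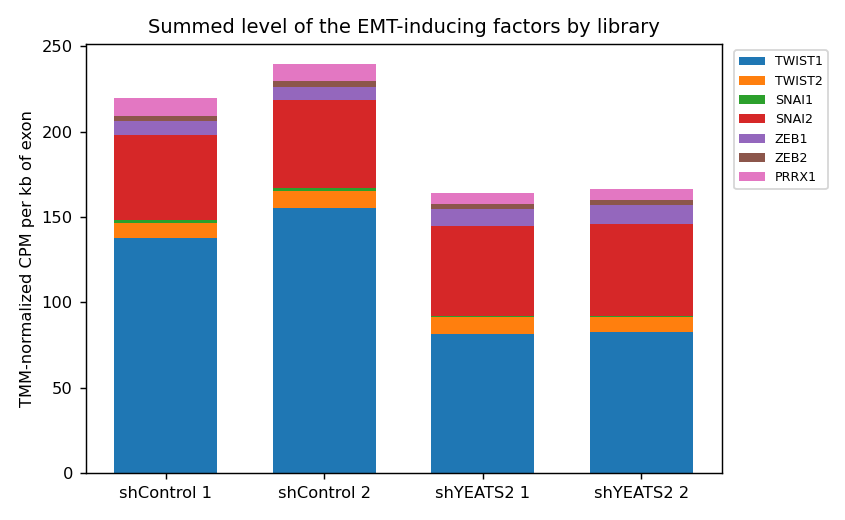
Summed level of the 7 EMT-inducing factors in each library, stacked by factor, in TMM-normalized CPM per kilobase of merged exons. TWIST1 (blue, at the base) takes 62.8% and 64.8% of the bar in shControl and 49.9% and 49.7% in shYEATS2, and SNAI2 (red) is the next largest part.

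TWIST proteins work as dimers with the E proteins (TCF3, TCF4 and TCF12), and the ID proteins, which lack a DNA-binding region, take E proteins away from them. The 3 E protein genes moved in opposite directions. TCF3 (E2A) rose from 131 and 133 CPM to 171 and 156 (log2 fold change 0.31 ± 0.06). TCF4 (E2-2) fell from 47.0 and 48.5 CPM to 29.4 and 33.3 (−0.62 ± 0.08, edgeR adjusted p = 1.6e-09), and TCF12 (HEB) from 70.9 and 69.7 to 48.1 and 49.0 (−0.54 ± 0.07, 3.2e-09). Per kilobase, the sum of the 3 was 29.7 and 29.9 in shControl and 32.9 and 30.8 in shYEATS2, and TWIST1 stood 4.64 and 5.19 times above it in shControl and 2.48 and 2.69 times above it in shYEATS2.

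Of the 4 ID genes, 3 were called lower and 1 higher, and their median log2 fold change was −0.59. Over all tested genes 23.6% were called lower and 22.6% higher, and the median was −0.01. ID3 fell from 170 and 162 CPM to 110 and 98.3 (log2 fold change −0.66 ± 0.06, edgeR adjusted p = 7.9e-14). ID2 fell by 0.64 and ID1 by 0.55 on the log2 scale. ID4, at 4.32, 4.81, 5.88 and 6.78 CPM, rose by 0.45 ± 0.17, a call lost with DESeq2, with no filter, without shControl replicate 1 and without shYEATS2 replicate 2. The ratio of TWIST1 to the summed ID level per kilobase was 0.610 and 0.698 in shControl and 0.523 and 0.608 in shYEATS2. Unlike the ratio to the E proteins, the nearest values of the groups, 0.610 and 0.608, almost met.

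**Figure D4:**
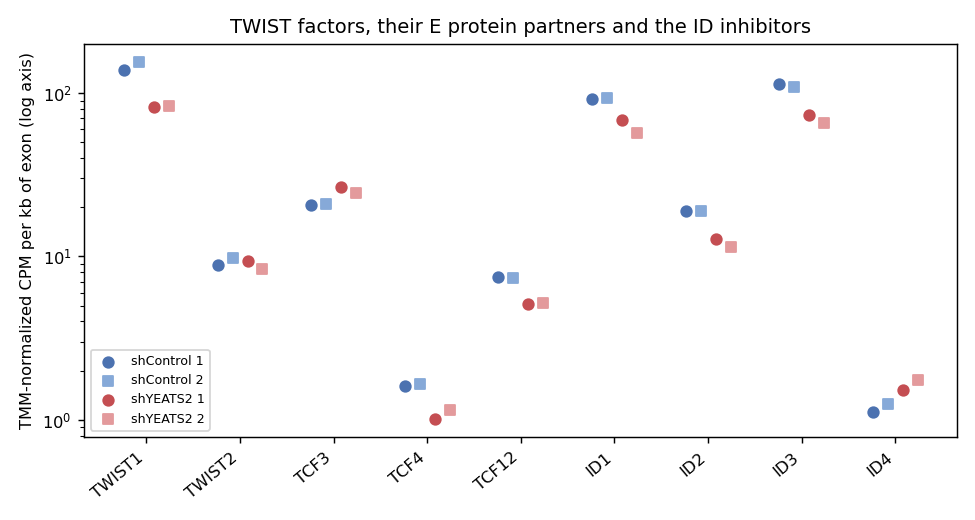
Level of the TWIST genes, the E protein genes and the ID genes in each library, in TMM-normalized CPM per kilobase of merged exons on a log axis. TWIST1, TCF4, TCF12, ID1, ID2 and ID3 lie lower in both shYEATS2 libraries (red), TCF3 and ID4 lie higher, and TWIST2 overlaps.

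Of 27 other transcription factors linked to EMT, 22 were tested: 4 were lower, 12 were higher and 6 did not pass, with a median log2 fold change of 0.29. The background over all tested genes was 23.6% lower and 22.6% higher. HMGA2, an architectural chromatin factor that acts upstream of SNAI1 and TWIST1 in other cells, rose from 7.14 and 6.45 CPM to 21.8 and 23.4 (1.72 ± 0.11, edgeR adjusted p = 3.4e-21). GATA6, an endoderm factor, rose by 1.33 ± 0.11, and FOXC2, a mesenchymal forkhead factor, by 0.83 ± 0.08. Beside TCF4 and TCF12, LEF1, a DNA-binding partner of β-catenin, fell from 15.4 and 16.4 CPM to 9.86 and 9.32 (−0.72 ± 0.12, edgeR adjusted p = 3.5e-07). SNAI3, the remaining SNAI gene, had 1 count in all, and GSC and MEOX1 had 0.

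Among 20 other epithelial transcription factors, 9 were tested, 6 were called higher and 0 lower by edgeR, with 0 lower also at an unadjusted p under 0.05 and a median of 0.95. The background was 22.6% higher and 23.6% lower. The count and the median describe the genes that had enough counts, and EHF, 1 of the 6, and FOXA1, which was not called, passed the filter through the shYEATS2 libraries alone. By DESeq2 the counts were 5 higher and 0 lower, and the DESeq2 share over all tested genes is not given here. KLF4, which supports barrier differentiation, rose from 20.1 and 19.6 CPM to 60.1 and 52.6 (1.52 ± 0.08, edgeR adjusted p = 2.5e-25). TFAP2C, an AP-2 factor of surface ectoderm, rose by 0.87 ± 0.12, and KLF5, a factor of proliferating epithelium, by 0.39 ± 0.07. GRHL1, a paralog of GRHL2 chosen after its values were seen, had 16, 13, 22 and 9 counts and was called higher (1.24 ± 0.49, edgeR adjusted p = 0.031). GRHL3 had 5, 5, 7 and 4 counts and was not tested. EHF, an epithelial ETS factor also chosen after its values were seen, had 3 and 1 counts in shControl and 40 and 34 in shYEATS2. ZNF750 and CDX2 had 0 counts in every library.

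The SNAI and ZEB proteins repress through corepressors and chromatin enzymes. All 23 such genes listed were tested: 9 were lower, 4 higher and 10 did not pass, with a median of −0.16, beside a background of 23.6% lower and 22.6% higher. CHD4, the ATPase of the NuRD complex, fell by 0.52 on the log2 scale (19.8, 17.7, 12.7 and 13.6 CPM, edgeR adjusted p = 4.2e-05). EED, a subunit of Polycomb complex PRC2, fell by 0.39, a call lost without shYEATS2 replicate 1 (adjusted p = 0.057), and the deacetylase HDAC1 fell by 0.29. AJUBA, a LIM protein that bridges SNAI1 to its partners, rose from 17.0 and 19.2 CPM to 35.7 and 32.0 (0.92 ± 0.09, edgeR adjusted p = 2.5e-13). BMI1, a Polycomb protein known to act with TWIST1, rose by 0.38 and CTBP2, a corepressor bound by ZEB1, by 0.30. With library totals alone, 4 of this list were lower and 5 higher. That scaling called 2571 of all 17058 tested genes lower and 5441 higher, so its background differs from the one above.

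Of 22 tested genes for the turnover of SNAI, TWIST and ZEB proteins, 5 were called lower and 5 higher, with a median of −0.03. The 22 genes and the median include USP51, which passed the filter through the shControl libraries alone and was not called. These counts are close to the background of 23.6% lower and 22.6% higher, so the list as a whole shows no more calls than the tested genes at large. STUB1 and MDM2, both ubiquitin ligases, fell by 0.33 and 0.28 on the log2 scale, and LATS2, a Hippo pathway kinase, by 0.24. FBXO45, a ligase subunit that acts on several EMT factors, rose from 33.4 and 37.9 CPM to 53.8 and 56.2 (0.62 ± 0.08, edgeR adjusted p = 3.9e-10). SIAH1 rose by 0.40, and GSK3B by 0.26 from 134 and 139 CPM to 162 and 163. The call of MDM2 was lost with library totals alone (adjusted p = 0.111) and that of GSK3B without shControl replicate 1 (0.052). LATS2 lost its call in 5 alternatives, among them library totals alone (0.300), DESeq2, thinned counts (0.081), shControl replicate 2 left out (0.237) and shYEATS2 replicate 1 left out (0.134). These are mRNA levels, and neither protein amounts nor protein stability were measured.

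Of 40 genes that SNAI and ZEB proteins are known to repress through E-boxes, 27 were tested, 8 were lower, 4 were higher and 15 did not pass, beside a background of 23.6% lower and 22.6% higher. The median was −0.01, equal to that of all tested genes to this precision. CDH1 (E-cadherin) had 16, 12, 72 and 25 counts, or 0.352, 0.317, 2.84 and 2.12 CPM, and was called higher (log2 fold change 2.91 ± 0.36, edgeR adjusted p = 4.6e-10). CDH1 passed the filter through the shYEATS2 libraries alone and remained a lowly expressed gene there. AP1M2, which was not called, entered in the same way, and the counts and median of the list include both genes. JUP (plakoglobin) rose from 5.95 and 6.05 CPM to 23.7 and 18.5 (1.84 ± 0.12, edgeR adjusted p = 3.7e-21). CLDN1, a tight junction claudin chosen after its values were seen, had 29 and 27 counts in shControl and 313 and 150 in shYEATS2.

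Other epithelial targets fell. CDH3 (P-cadherin) went from 25.2 and 24.8 CPM to 3.79 and 2.63 (−2.88 ± 0.14, edgeR adjusted p = 1.0e-28). The simple-epithelial keratins KRT8 and KRT18, which pair in filaments, fell by 1.16 and 0.55 on the log2 scale. The 13 genes not tested include the splicing regulators ESRP1 and ESRP2, with at most 10 counts in a library, and CRB3 with 0. The rise of CDH1 stands beside falls of other junction and keratin genes in the same list.

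Of 31 tested mesenchymal genes linked to the factors, 20 were called lower, 6 higher and 5 did not pass, with a median log2 fold change of −0.80. The background stood at 23.6% lower and 22.6% higher. CDH11, a mesenchymal cadherin, fell from 34.1 and 32.8 CPM to 3.55 and 3.90 (−3.19 ± 0.13, edgeR adjusted p = 6.9e-33). CXCL12, a stromal chemokine, fell by 2.93, and COL3A1, the chain of type III collagen, by 2.14 from 1042 and 1025 CPM to 241 and 227. COL6A3 (type VI collagen) rose from 4.40 and 5.00 CPM to 26.2 and 25.8 (2.47 ± 0.12), the crosslinking enzyme LOX by 0.49 and the matrix protein TNC by 0.36. The fibroblast sum given above was lower beside this list, and the lists share genes.

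The classical mesenchymal readouts moved little beside these. VIM (vimentin) was called higher by 0.18 ± 0.06 (edgeR adjusted p = 0.0080), a call lost with no filter, without either shControl library and without shYEATS2 replicate 1 (adjusted p from 0.078 to 0.186). CDH2 (N-cadherin), at 80.0, 88.6, 89.9 and 99.3 CPM, was called higher by 0.16 ± 0.07 at an adjusted p of 0.0496, and lost this call in 6 alternatives, DESeq2 among them (0.123). FN1 (fibronectin) did not pass at −0.14 ± 0.06 (adjusted p = 0.063), and was called lower in 4 alternatives, with limma-voom at 0.011.

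**Figure D5:**
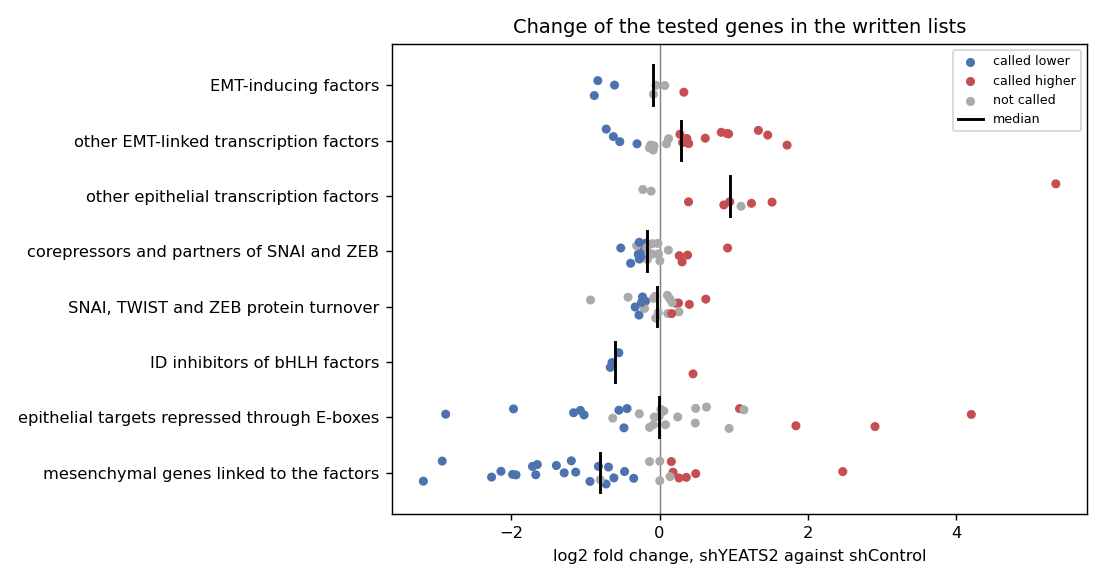
Log2 fold change of each tested gene, shYEATS2 against shControl, in 8 gene lists. Blue points were called lower, red points higher and grey points not called, black bars are medians, and vertical scatter within a list has no meaning. The median is −0.80 for the mesenchymal genes, −0.01 for the E-box targets and −0.08 for the EMT-inducing factors. It is 0.95 for the 9 tested genes of the other epithelial transcription factors, a list without GRHL2, OVOL1 and OVOL2.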

How the data were processed

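For 2 shControl and 2 shYEATS2 libraries of BICR10, the authors deposited raw counts, 1 whole number of read pairs for each Ensembl gene. Per the labels and the methods, the authors used STAR for alignment (GRCh38) and HTSeq for counting, without normalization. The annotation release and strand setting are not given in the sources used here. From 15.3% to 16.5% of tallied pairs were assigned to no gene and were left out. The authors tested with DESeq2.

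Genes were kept by filterByExpr (17058), scaled by TMM (factors 0.960, 0.950, 1.05 and 1.04) and tested with edgeR 4.0.16 (glmQLFit, robust, and glmQLFTest) in R 4.3.3, with adjusted p under 0.05. The code was tested on simulated data. Lengths and positions come from GENCODE 44. The study describes its replicates in general as biological, and the labels do not say how the libraries of a group were grown, so p-values measure the spread between these libraries, which may be technical. Replicates differed beyond counting noise (chi-square per degree of freedom 5.95 and 5.39), and the common biological coefficient of variation was 4.95%. Replicate numbers did not pair the libraries (correlation −0.018). Intervals and floors cover counting error only, apart from those of fold changes. The alternatives were other scalings, filters and tests (DESeq2 1.42.0, limma 3.58.1), a replicate block, counts thinned to 11334133, and each library left out.

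The 10 factors and all lists were chosen with earlier results of these data known. Named genes are these factors, YEATS2, CDH1, VIM, CDH2, FN1, genes overlapping a factor, and in each list the 3 largest falls and rises by size, limited to calls whose groups do not overlap and whose mean level reaches 10 CPM. Marker genes (KRT6A, KRT5, DSC3, SFN, PERP and others), E proteins, undetected genes and ID4 were named after their values were seen. So were GRHL1, GRHL3, EHF, FOXA1, AP1M2, USP51 and CLDN1.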

Additional observations from a re-analysis of the deposited data

How the results depend on the processing

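The directions of TWIST1, SNAI1, SNAI2, ZEB1 and PRRX1 held in all 13 alternatives, and the calls of TWIST1, ZEB1 and PRRX1 in each of them. Over all single-gene results, 554 alternatives kept direction and call, 20 lost the call, 6 gained one and 5 reversed, all 5 in TWIST2 or ZEB2. Library totals alone changed the most results. They moved the median of all tested genes to 0.13, gave 2571 genes lower and 5441 higher, where TMM gave 4019 and 3858, called 2 factors higher (ZEB1 and SNAI2), and turned TWIST2 to 0.087, ZEB2 and the median of the EMT-inducing factors to 0.050, the turnover median to 0.10 and the E-box target median to 0.13. They also left 4 corepressors lower, and 1 turnover gene lower with 8 higher. Apart from the shared shift of this scaling, the cause of the changes was not tested.

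With 1 library left out, TWIST2 ranged from −0.16 to 0.016, ZEB2 from −0.20 to 0.031 and the median of the EMT-inducing factors from −0.20 to −0.10. The numbers of turnover calls and of ID calls higher also moved in these fits. They are not printed, since 1 group then holds 1 library. The median of all tested genes ranged from −0.028 to 0.0039, that of turnover from −0.081 to 0.0042 and that of the E-box targets from −0.13 to 0.0034. DESeq2 and thinned counts each left 3 turnover genes lower, no filter left 3 higher, and no filter or DESeq2 left 0 ID genes higher. The shares of all tested genes called in these settings are not given here, so these counts have no background beside them. Medians near 0 changed sign elsewhere too: that of all tested genes was 0.0030 with upper quartiles, that of turnover 0.032 with thinned counts, and that of the E-box targets 0.00022 with DESeq2 size factors, 0.0051 with upper quartiles and with limma-voom, 0.022 without a filter and 0.0064 with at least 10 counts in every library. That of the microRNA host and antisense genes was −0.15 without a filter, against 0.26.

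With a replicate block, TWIST1 stood at −0.83, SNAI1 at −0.85 and ZEB1 at 0.33, 4142 genes were lower and 3871 higher, and no call of the 10 factors changed. FN1 was called lower under the block (−0.14, adjusted p = 0.031). Depth limits SNAI1 and the epithelial factors most, as 3 counts in shYEATS2 2 are 0.254 CPM.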
